A study of Mus musculus with 2 samples.

Results

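Acute-phase plasma proteins are made mainly by hepatocytes and released into the blood, and the synthesis of most of them rises in inflammation. Interleukin-6, acting through its receptor subunit gp130 and the transcription factor STAT3, and interleukin-1, acting through NF-kB and C/EBP factors, are the classical inducers of these genes in liver. The group studied here was given by name and holds 10 genes: the serum amyloid A genes Saa1, Saa2 and Saa4, which encode apolipoproteins of high density lipoprotein, the scavenger genes Hp (haptoglobin, which binds free hemoglobin) and Hpx (hemopexin, which binds free heme), the lipocalin genes Orm1, Orm2 and Lcn2, and the pentraxin genes Crp (C-reactive protein) and Apcs (serum amyloid P component). Of these 10 genes, 6 were found in the deposited table of 8551 genes, namely Hpx, Hp, Saa4, Crp, Apcs and Lcn2. Saa1, Saa2, Orm1 and Orm2 were not analysed here.

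The liver transcripts of normal and type 2 diabetic mice were counted by digital gene expression tags, in which poly(A) RNA is copied to cDNA, cut with Dpn II at its site GATC and sequenced as a short tag next to the site. Normal mice were wild type males of C57BL/6 background, and diabetic mice were db/db males labelled with the same background, which carry an inherited defect of the leptin receptor and not one limited to liver. Both were 9 weeks old, fed chow freely and killed about 3 h into the light phase. The mice came from a pair of suppliers, and which supplier gave which group, and whether RNA of several mice was pooled, is not given in the sources used here. There was 1 library per group, so no difference below has a replicate check, and genotype cannot be told apart from mouse, supplier or library. Values are tags of a gene per 1000000 clean tags, called TPM. Their steps gave depths of 10278531 clean tags for normal and 13508232 for diabetic liver. Intervals in brackets are 95% intervals and cover counting error only. The genes of the table summed to 370647 TPM in normal and 443670 TPM in diabetic liver. Alb (albumin), a marker of hepatocytes, had 6801 TPM in normal and 6912 TPM in diabetic liver. Of 16 hepatocyte markers, 13 had values and summed to 41565 and 29811 TPM. The fall of this sum lay in its most abundant gene, Apoa1, at 14668 and 2875 TPM. As deposited, the median log2 ratio of diabetic over normal of the 13 markers was -0.0009, with single ratios from -2.45 (Apob) to 1.28 (Cps1). Of the 13, 3 were called higher and 4 lower by the criteria given below. Under 4 other scalings between the libraries, also given below, Tdo2 was no longer called higher.

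The sequence of the tag decides whether a transcript can be assigned to 1 gene, so the tags of the members are shown first. In the longest protein-coding GENCODE transcript of each gene (release M21, build GRCm38), the 20 bases that start at the GATC nearest to the 3′ end were read, with the Dpn II site in capitals.
Hpx: GATCagccttgagaccatag
Hp: GATCctgagctttgacaaga
Saa4: GATCgaaacaaaagtctgct
Crp: GATCctttcctatccttcca
Apcs: GATCttacaacaaaacctca
Lcn2: GATCagaacatttgttccaa
Saa1 and Saa2: GATCtgcccaggagacacca
Orm1 and Orm2: GATCctgaggaaggccaggc
Orm3: GATCctgaggaaagccaggc

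Each tag of the 6 genes with values occurred at a GATC of no other gene in the GENCODE transcripts. The tags of the other 4 members were all common to more than 1 gene. Saa1 and Saa2 had the same tag, with 0 differences, and it lies in the 5′ UTR of both transcripts because no GATC follows it. Orm1 and Orm2 also had the same tag, which the predicted gene Gm11212 holds too. Orm3, a paralog of both, differs from Orm1 by the substitution G13A, counted from 1 at the 5′ end of the tag, and Orm3 had values. For comparison, the tag belonged to 1 gene for 95.5% of 7068 genes of the deposited table with a site and for 86.9% of 20754 protein-coding genes with a site. The authors separated reads that map to unique genes from reads that map to multiple genes, and described the genes they quantified as unique. Whether tags common to several genes entered the deposited values is not stated directly in the sources used here. The tag length is not given either and was set to 20 here.

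On GRCm38, the Hpx tag lies in coding sequence of exon 9 (chr7:105592128-105592147, minus strand) and the Hp tag in coding sequence of exon 5 (chr8:109575354-109575373, minus strand). The Lcn2 tag lies in coding sequence of exon 3 (chr2:32385995-32386014, minus strand). The tags of Saa4 (chr7:46728391-46728410, minus strand), Crp (chr1:172699438-172699457, plus strand) and Apcs (chr1:172894083-172894102, minus strand) lie in the 3′ UTR. These positions come from matching the transcripts and not from the deposited table, for which the processing notes name mm9. A transcript gives 1 tag at a given site whatever its length, so tag levels need no correction for length, although the recovery of single tags can differ between genes.

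Of the 6 genes, Lcn2 was higher in the diabetic library, Apcs was lower, and Hpx, Hp, Saa4 and Crp differed less than 1.5-fold. A gene was called at a fold change of at least 1.5 with a false discovery rate (FDR) under 0.001 in an exact binomial test on the reads. This test sets one library against the other and says nothing of the spread between mice. So 1 of the 6 genes was called higher and 1 was called lower, where 22.5% of all listed genes were called higher and 8.07% lower. By the fold change alone the numbers of members were the same, with 34.4% of all listed genes higher and 15.3% lower. The median log2 ratio of the 6 genes was -0.01, and that of all listed genes was 0.25. Of the genes called, 73.6% were higher, and this share was 47.6% to 52.8% under 4 other scalings between the libraries, which lowered every log2 ratio by 0.25 to 0.31. Ratios are therefore given both as deposited and, where the call or the sign changes, under these scalings. In liver tissue, fewer cells that express a gene and less RNA per cell cannot be told apart.

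**Figure D1:**
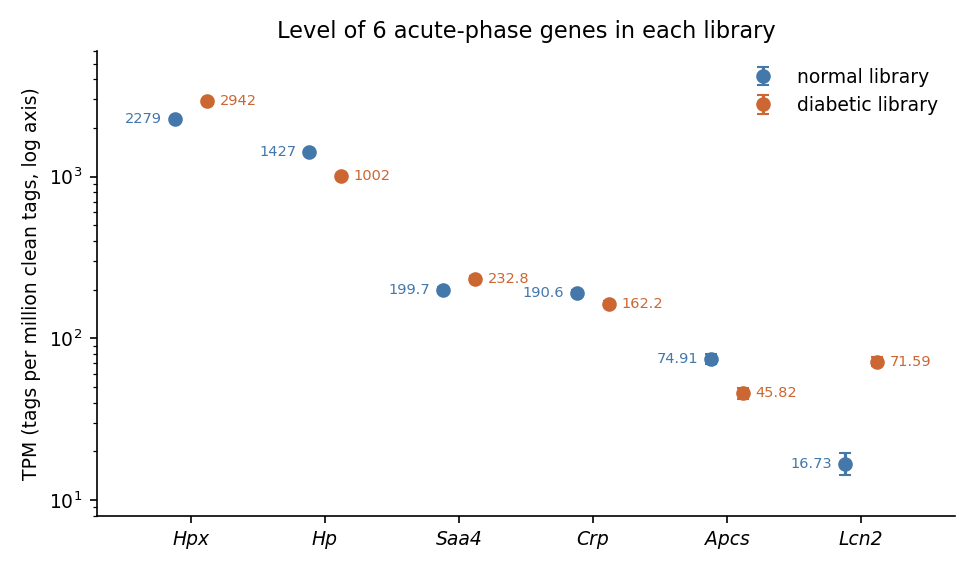
Level of Hpx, Hp, Saa4, Crp, Apcs and Lcn2 in TPM (tags per 1000000 clean tags, log axis) in the normal library (blue) and the diabetic library (orange), with 95% Poisson intervals that cover counting error only and 1 library per group. Lcn2 moved from 16.7 to 71.6 TPM and passed Apcs, while the order of the other genes was the same in both libraries.

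Together the 6 genes took 0.419% of all clean tags of normal liver (exact interval, 0.415% to 0.423%) and 0.446% of those of diabetic liver (0.442% to 0.449%). Of the listed reads they took 1.13% and 1.00%. Most of these reads came from the scavenger genes Hpx and Hp, which held 88.5% of the reads of the 6 genes in each library. In the normal library the levels fell in the order Hpx, Hp, Saa4, Crp, Apcs, Lcn2. Saa4 and Crp were neighbours there that did not differ beyond counting error, with a ratio of 1.05 (0.985 to 1.12). In the diabetic library Saa4 was 1.44 times Crp (1.36 to 1.52), and Lcn2 was 1.56 times Apcs (1.41 to 1.73).

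Hpx (Entrez 15458), the heme-binding plasma glycoprotein, was the most abundant member. Hpx had 2279 TPM (23422 reads) in normal and 2942 TPM (39746 reads) in diabetic liver. The log2 ratio of 0.37 (0.35 to 0.39) lay within 1.5-fold and was 0.06 to 0.12 under the 4 other scalings. Hp (Entrez 15439), the hemoglobin-binding protein, moved the other way, from 1427 TPM (14667 reads) to 1002 TPM (13531 reads). Its log2 ratio was -0.51 (-0.54 to -0.48), a 1.42-fold lower value that was not called. Under each of the 4 other scalings Hp was past 1.5-fold and called lower, with log2 ratios of -0.82 to -0.76.

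The ratio of 2 genes inside a library does not depend on the scaling between libraries. Hpx was 1.60 times Hp in the normal library and 2.94 times Hp in the diabetic library, so the ratio was 1.84 times as high (1.79 to 1.89). These scavengers therefore differed in opposite directions as deposited, and unequally under every scaling. This pair, like the other gene pairs below, was chosen after the values were seen. Set against Alb, whose log2 ratio was 0.02 as deposited and -0.28 to -0.23 under the other scalings, Hpx was 1.27 times as high (1.25 to 1.29) and Hp 0.691 times (0.673 to 0.708).

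Crp (Entrez 12944) and Apcs (Entrez 20219) encode the short pentraxins and are direct neighbours on chromosome 1 in the RefSeq gene order, with 0 coding genes between them. Crp had 191 TPM (1959 reads) in normal and 162 TPM (2191 reads) in diabetic liver. The log2 ratio was -0.23 (-0.32 to -0.14), and it stayed within 1.5-fold under the other scalings at -0.54 to -0.49. Apcs, the major pentraxin of the acute phase in the mouse, went from 74.9 TPM (770 reads) to 45.8 TPM (619 reads). It was 1.63-fold lower, with a log2 ratio of -0.71 (-0.86 to -0.55, exact test FDR 6.7e-19). The interval reaches above the 1.5-fold line, and with a threshold of 2-fold Apcs was not called. The ratio of Crp to Apcs was 2.54 in the normal and 3.54 in the diabetic library, 1.39 times as high (1.23 to 1.57).

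Saa4 (Entrez 20211) encodes the constitutive serum amyloid A, which responds little to inflammation. Saa4 had 199.7 TPM (2053 reads) in normal and 233 TPM (3145 reads) in diabetic liver. The log2 ratio of 0.22 (0.14 to 0.30) lay within 1.5-fold, and its sign turned under each of the other scalings, to -0.08 to -0.03. Next to Saa4 on chromosome 7, with 0 coding genes between, lies Saa3 (Entrez 20210), an inducible serum amyloid A of macrophages and adipose tissue that is no member of the group. Saa3 fell from 18.4 TPM (189 reads) to 5.48 TPM (74 reads), a log2 ratio of -1.75 (-2.15 to -1.35). The ratio of Saa4 to Saa3 was 10.9 in the normal and 42.5 in the diabetic library.

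Markers of Kupffer cells and macrophages were read beside the fall of Saa3. Of 15 markers, 11 had values, 5 of them were called lower and 1 higher, and their summed level was 354 TPM in the normal and 209 TPM in the diabetic library. C1qa was lower at 176 and 50.7 TPM, C1qb was higher at 38.1 and 57.8 TPM (within 1.5-fold under the other scalings), and no marker with a value was at 0. Lyz2, with 43 and 27 reads, was not called as deposited and was called lower under the other scalings. The part of these cells in the Saa3 values was not tested.

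Lcn2 (Entrez 16819) encodes lipocalin 2, which binds bacterial siderophores and is made by hepatocytes, neutrophils and adipocytes. It was the least abundant member in normal liver, at 16.7 TPM (172 reads), and reached 71.6 TPM (967 reads) in diabetic liver. Lcn2 was 4.28-fold higher, with a log2 ratio of 2.10 (1.86 to 2.34, exact test FDR 1.1e-90), above 96.6% of all listed genes. Under the 4 other scalings its log2 ratio was 1.79 to 1.84, and the call did not change. The ratio of Lcn2 to Hp, which no scaling alters, was 6.09 times as high in the diabetic library (5.17 to 7.18). Of the other members, Hpx was at percentile 55.6 of all ratios, Saa4 at 48.3, Crp at 27.4 and Hp at 17.3, and Apcs was the lowest of the 6.

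**Figure D2:**
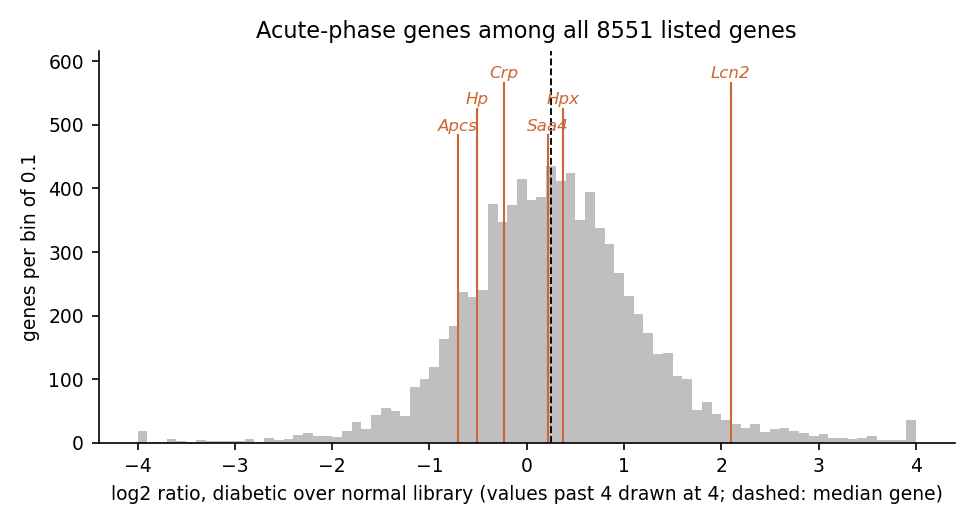
Number of genes (bins of 0.1) by log2 ratio of diabetic over normal TPM for all 8551 listed genes, with the 6 acute-phase genes as orange lines, the median gene of 0.25 as a dashed line and values past 4 drawn at 4. Lcn2 lies in the upper tail at 2.10, while the other 5 genes lie between -0.71 and 0.37.

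Markers of other cell types that express Lcn2 were read beside it. Of 14 neutrophil markers, only S100a9 had a value, with 24 reads in normal and 41 in diabetic liver, a log2 ratio of 0.38 (-0.38 to 1.17), and the other 13 were not analysed here. Of 8 adipocyte markers, 4 had values and all 4 were called higher, with a summed level of 64.9 TPM in the normal and 216 TPM in the diabetic library. The most abundant of them was Car3, at 55.7 and 164 TPM, which was most of the sum in each library. Fabp4 was at 8.56 and 26.6 TPM, Cfd at 0.49 and 11.8 TPM, and Cidec at 0.19 and 13.0 TPM. Whether hepatocytes express these 4 genes was not tested, so their sum is no measure of adipocytes. The other 4 adipocyte markers, Adipoq, Lep, Plin1 and Retn, were not analysed here. The part of neutrophils and adipocytes in the Lcn2 values was not tested.

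Orm3 (Entrez 18407), the paralog of Orm1 and Orm2 with values, is no member and lies between them on chromosome 4. Lipocalin genes were not read as a family here. Orm3 had 5.45 TPM (56 reads) in normal and 40.7 TPM (550 reads) in diabetic liver, 7.47-fold higher with a log2 ratio of 2.90 (2.50 to 3.33). Since its tag is 1 base from the tag of Orm1 and Orm2 and the mismatches allowed in the authors' search are not given in the sources used here, its reads are uncertain. Orm3 and Lcn2 were both called higher under all 5 scalings.

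**Figure D3:**
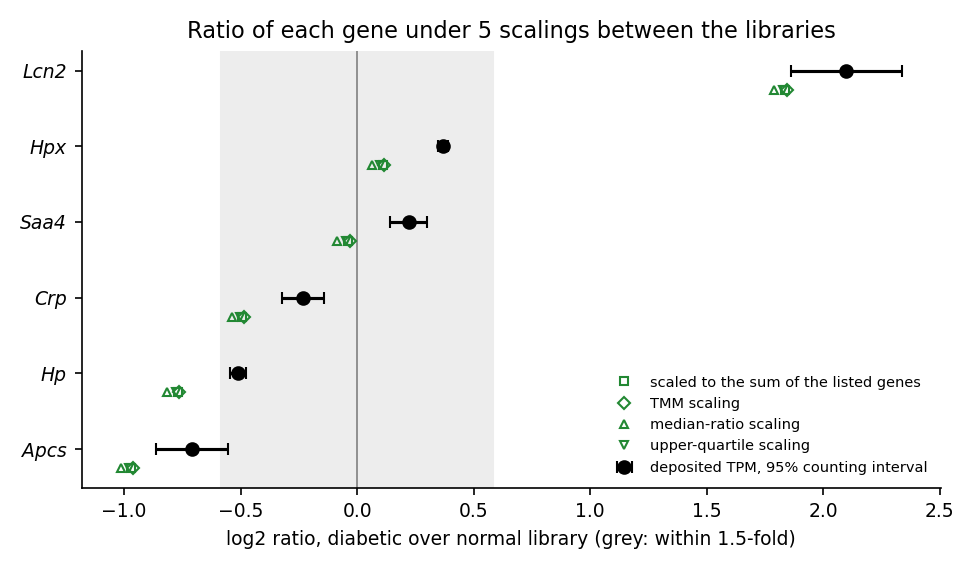
Log2 ratio of diabetic over normal TPM for each of the 6 genes as deposited (black, with 95% counting intervals) and under 4 other scalings (green symbols), with the range within 1.5-fold in grey. Hp leaves the grey range under the other scalings, Saa4 changes sign, and Lcn2 and Apcs lie outside it under all 5.

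The 300 bases around the gene start (250 before to 50 after, RefSeq, GRCm38.p6) were searched for sequences of the inducers, on both strands, with each motif counted on its own and overlaps between motifs allowed. Of the 6 genes, 5 had an entry and Hp had none. The C/EBP letters TTGCNNAA occurred in Lcn2, Hpx and Saa4, and in 10.8% of the 32851 promoters of the table. Crp and Apcs had 0 matches. The STAT letters TTCNNNGAA occurred in Apcs (8.3% of all promoters), the NF-kB motif in 0 of the 5 (8.46%), and the letters TATAAA in Crp (13.6%). The C/EBP matches are shown in capitals, since they were the only motif that more than 1 of the 5 genes held.
Lcn2: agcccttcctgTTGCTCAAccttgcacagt
Hpx: tggctggaaatTTGCTGAAgggggtagggg
Saa4: accaggaaggaTTGAGCAAgagggactctg

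They lie at chr2:32387937-32387966 (Lcn2), chr7:105600298-105600327 (Hpx) and chr7:46732637-46732666 (Saa4), all on the minus strand, with the match starting 216, 200 and 52 bases before the gene start. Saa4 held a second match that starts 245 bases before it. The C/EBP letters also occurred in Saa3 and Orm3. The 5 genes with values and a match thus had log2 ratios on both sides, from -1.75 for Saa3 to 2.90 for Orm3. A match of letters is no evidence that a factor binds there.

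Genes that share the biology of the members were taken from lists. Of 40 other genes that are induced in the acute phase, Saa3 and Orm3 included, 27 had values, of which 7 were called higher and 9 lower, with a median log2 ratio of -0.20. Under the other scalings 6 were called higher and 12 lower, with medians of -0.51 to -0.45. The higher genes included the metallothionein genes Mt1, from 19.8 to 347 TPM, and Mt2, from 6.23 to 131 TPM, and Hamp2, a paralog of the iron hormone hepcidin, from 113 to 912 TPM. The fibrinogen gene Fgg, the most abundant of the list, fell from 5079 to 1837 TPM. Like the 6 members, this list therefore did not move one way. Of 16 genes that decline in the acute phase, 14 had values, 4 were called higher and 2 lower, and the median log2 ratio was 0.22. Under the other scalings 1 to 2 were called higher and 2 lower, and the median turned to -0.09 to -0.04. Among them Apoa4 was higher at 105 and 653 TPM and Serpina6, which encodes the corticosteroid carrier, at 51.7 and 94.4 TPM, although it was within 1.5-fold under the median-ratio scaling. Hsd11b1 was called higher as deposited at 245 and 401 TPM and was within 1.5-fold under the other scalings. Apoa1 and Fetub were the lower genes, with log2 ratios of -2.35 and -0.78.

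**Figure D4:**
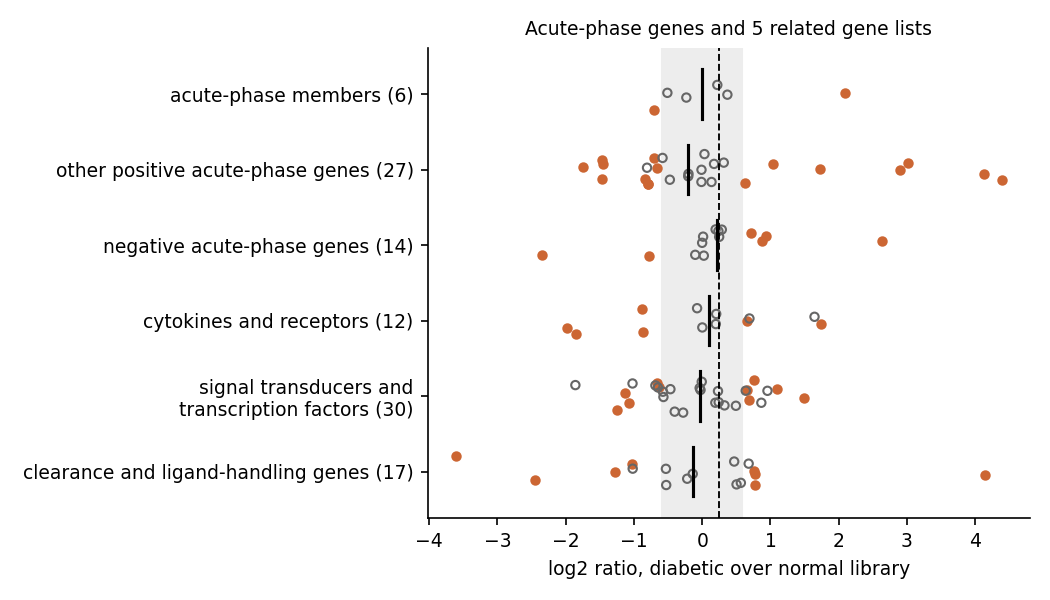
Log2 ratio of diabetic over normal TPM for each gene with values of 6 lists (number of genes in brackets), filled where the gene was called and open where it was not, with the median of each list as a black bar and that of all listed genes as a dashed line. As deposited, called genes lie on both sides in every list and the medians lie between -0.20 and 0.22, while under the other scalings the cytokine and signal transducer lists have 0 genes called higher and the medians run down to -0.51.

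Of 22 cytokine and receptor genes, 12 had values, of which 4 were called lower and 2 higher as deposited. Under each of the other scalings 4 were called lower and 0 higher. The interleukin-1 receptor gene Il1r1 fell from 181 TPM (1861 reads) to 50.4 TPM (681 reads), a log2 ratio of -1.84 (-1.97 to -1.72). Lifr, the receptor of leukemia inhibitory factor, fell from 154 to 83.4 TPM and Il10rb from 16.1 to 8.81 TPM. Tnfrsf1a, a receptor of tumor necrosis factor, was called higher at 45.1 and 70.9 TPM, and was within 1.5-fold under the other scalings. Il6st, which encodes gp130 and was named after its values were seen, was at 11.1 TPM in both (114 and 150 reads), a log2 ratio of 0.00 (-0.36 to 0.37) as deposited and of -0.30 to -0.25 under the other scalings.

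Of 36 signal transducers and transcription factors, 30 had values, and 5 were called higher and 5 lower as deposited. Under the other scalings 0 were called higher and 9 to 10 lower. Jak1, a kinase of cytokine receptors, fell from 26.7 to 12.2 TPM, Hnf4a, a transcription factor of hepatocytes, from 96.8 to 46.2 TPM, and Bcl3, a partner of NF-kB, from 32.0 to 20.3 TPM. Creb3l3, a liver transcription factor known to act on Crp and Apcs, was higher at 39.6 and 67.3 TPM, and Myd88, the adaptor of interleukin-1 signalling, at 8.95 and 14.4 TPM. Neither Creb3l3 nor Myd88 was past 1.5-fold under the other scalings. Cebpa, the most abundant of the list, was at 218 and 255 TPM, a log2 ratio of 0.23 as deposited that turned to -0.07 to -0.02 under the other scalings. Cebpb, named after its values were seen, was called higher as deposited at 120 and 188 TPM, a log2 ratio of 0.65 (0.55 to 0.75). Under the other scalings Cebpb was within 1.5-fold. Stat3, also named after its values were seen, was at 49.4 and 40.7 TPM, a log2 ratio of -0.28 (-0.46 to -0.10), and was not called as deposited. Under the median-ratio scaling Stat3 was just past the 1.5-fold line at -0.59 and called lower.

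Of 26 genes that clear or handle the ligands of the members, 17 had values, with 4 called higher and 4 lower as deposited. Under each of the other scalings 1 was called higher and 6 lower. Cd163, the macrophage receptor for haptoglobin bound to hemoglobin, fell from 20.5 TPM (211 reads) to 10.1 TPM (136 reads), a log2 ratio of -1.03 (-1.35 to -0.71). Fcer1g, the common chain of receptors through which pentraxins can act, fell from 46.1 to 19.0 TPM. Both fell beside the Kupffer cell markers given above, of which Cd163 is 1, and the part of these cells was not tested. Hmox2, which degrades heme, was higher at 50.1 and 85.7 TPM, and Fth1, which stores the iron, at 907 and 1548 TPM, but both were within 1.5-fold under the other scalings. In the longest Hmox2 transcript the last GATC leaves no full tag of 20 bases, so its assignment to 1 gene could not be checked. Cd36, a scavenger receptor that binds serum amyloid A, was higher at 12.1 and 213 TPM, and Apob fell from 804 to 147 TPM.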

How the data were processed

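Livers were profiled by DpnII tags. The authors removed adaptors, compared clean tags with RefSeq and deposited 1 value per gene and library, called TPM, which is an RPM (tags of a gene per 1000000 clean tags), with 0.01 for no tag and without genes whose mean was under 1 (lowest mean found, 1.005). The aligner is not given in the sources used here. The build in the submitters' notes is mm9.

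Reads were recovered from the equal steps of the values. Within a tolerance of 0.1 read, 8513 of 8513 values above 0.01 were whole in the normal and 8536 of 8537 in the diabetic library. Listed genes held 3809707 and 5993204 reads, and the median gene 71 and 111. Log2 ratios used the deposited values, with libraries at 3 reads or fewer set to 3 reads, intervals were Clopper-Pearson, and ratios between gene pairs had normal-approximation intervals on the log scale. Each gene was tested by a two-sided exact binomial test on its reads, with Benjamini-Hochberg adjustment over 8551 genes. Tags carry no molecular identifiers, so counting error is a lower limit of the error. The calculation was tested on simulated reads. Of the Entrez identifiers, 8317 matched the RefSeq gene table (GRCm38.p6), used for gene order only. The number of unused value columns was 0.

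The members and lists were chosen with earlier results of these data known. Named genes were the members, Saa3 and Orm3, from each list up to 5 called genes with the largest ratio and a mean of at least 10 TPM, the most abundant gene of each list, the most abundant marker of each cell type whose markers are read beside a result, and the nearest listed neighbours of the members. Some further list genes and markers are named outside this rule. Alternatives were 4 scalings (sum of listed genes, TMM trimming 30% of ratios and 5% of abundances, median ratio over genes of at least 10 TPM, and 75th percentile), the Audic-Claverie test, a threshold of 2-fold, only genes averaging 5 TPM or more, and a pseudocount of 0.1 or 1 TPM. Calculations were run with scipy 1.17.1, pandas 2.3.3 and numpy 2.4.6 under Python 3.11.15, and plots with matplotlib 3.10.9.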

Additional observations from a re-analysis of the deposited data

How the results depend on the processing

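With 1 library per group, leaving out a replicate was not possible. No paired analysis was possible because each group has 1 library. Scaling between the libraries was the choice that changed most. In the order sum of listed genes, TMM, median ratio and upper quartile, the log2 ratio of Saa4 turned to -0.0384, -0.0318, -0.0847 and -0.0471, the number of members called lower rose from 1 to 2 under each (Hp joined Apcs), and the median of the 6 members moved to -0.27, -0.26, -0.31 and -0.27. In the same order, the median of the other induced acute-phase genes was -0.46, -0.45, -0.51 and -0.47 and that of the declining genes -0.0426, -0.0360, -0.0889 and -0.0514. Over all listed genes 1234, 1259, 1125 and 1211 were called higher and 1142, 1127, 1236 and 1166 lower, against 1928 and 690 as deposited. Called higher were then 2, 2, 1 and 2 of the declining genes, 0 of the cytokine and receptor genes, 0 of the signal transducers and 1 of the clearance genes, and 9, 9, 10 and 9 signal transducers were called lower. These counts follow from a shift of every ratio by 0.25 to 0.31.

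With a threshold of 2-fold, 0 members were called lower and Apcs was not called. The calls were then 1219 higher and 384 lower over all genes, 4 lower of the other induced genes, 1 higher and 1 lower of the declining genes, 1 higher and 2 lower of the cytokine and receptor genes, 2 higher and 3 lower of the signal transducers, and 1 higher of the clearance genes. With a minimum mean of 5 TPM, 1 cytokine or receptor gene and 3 signal transducers were called higher. The median log2 ratio of the clearance genes then turned from -0.14 to 0.47. That of the cytokine and receptor genes turned from 0.10 to -0.04. Both pseudocounts and the Audic-Claverie test changed no call and no sign of the 6 members. Lcn2 was called higher under all 9 alternatives. The depth gave Lcn2 172 reads in the normal library, the fewest of any member. The cause of the shift between scalings was not tested.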

Other observations

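The nearest genes with values on either side of the members, by RefSeq gene order, were read as a description of the loci. Beside Lcn2 on chromosome 2, Ptges2 had 16.1 TPM in normal and 27.4 TPM in diabetic liver, a log2 ratio of 0.77 (counting interval, 0.50 to 1.04) that was within 1.5-fold under the other scalings, and the gene on the other side, 1110008P14Rik, at 41.7 and 35.2 TPM. Beside Hp on chromosome 8, Txnl4b had a log2 ratio of 0.10 (-0.41 to 0.62) and Dhodh of 0.16 (-0.46 to 0.78), from 39 to 79 reads in a library. Both signs turned under the other scalings, to -0.20 to -0.15 for Txnl4b and -0.15 to -0.10 for Dhodh. On chromosome 7, Trim3, directly beside Hpx, had 8 and 18 reads, a log2 ratio of 0.77 (-0.50 to 2.19), and was not called. On the other side, with 1 coding gene between, Smpd1, which encodes acid sphingomyelinase, fell from 27.8 to 15.3 TPM. Of the genes next to Saa2, Hps5 had 37 and 80 reads and was not called. On chromosome 1, Slamf8, the nearest on the outer side of Crp, had 20 and 23 reads and was not called. Aim2, with 10 coding genes between it and Apcs, had 79 and 67 reads, a log2 ratio of -0.63 (-1.12 to -0.14). Aim2 was not called as deposited and was called lower under the other scalings, at -0.94 to -0.89.

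Of the marker lists of other liver cells, sinusoidal endothelial markers (10 of 11 with values) summed to 177 TPM in normal and 153 TPM in diabetic liver. Stellate cell and fibroblast markers (9 of 10) summed to 128 and 169.9 TPM, and cholangiocyte markers (3 of 6) to 61.5 and 107 TPM. Most of the cholangiocyte sum was Spp1, at 57.2 TPM in normal and 103 TPM in diabetic liver. Spp1 was called higher as deposited and was within 1.5-fold under the median-ratio and upper-quartile scalings. Epcam and Krt7, the other cholangiocyte markers with values, were not called under any scaling. Markers of T and NK cells (1 of 10) summed to 1.56 and 1.33 TPM and those of B cells (2 of 6) to 5.35 and 3.77 TPM. The erythroid marker Alas2, 1 of 7 with values, was at 51.9 and 44.2 TPM and was not called.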
